A study of Mus musculus with 12 samples.

Results

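Adgre1, Cd68, Trem2, Tyrobp, Mertk, Axl, Gas6, Mfge8, Sirpa and Vcam1 are genes of macrophage identity and of the uptake of apoptotic cells. They were chosen by name, and every array probe set annotated to them alone was taken, which gave 10 genes with 17 probe sets of 18193 genes and 45101 probe sets on the array. Their messenger RNA was measured on 12 single-colour Affymetrix arrays, 1 per culture, in cells grown from the marrow of BALB/c and BL6 mice aged 6 to 8 weeks. All cultures received GM-CSF, a myeloid growth factor, at 20 ng/ml for 10 days, and the labels call the cells dendritic cells. From the start of culture, cells received all-trans-retinoic acid (RA, 10 nmol/ml as labelled), a receptor antagonist (Ro in the labels, 100 nmol/ml as labelled) or no retinoid, each with or without LPS at 1 ug/ml. The series' design text gives the same doses without the volume, and the sources used here give no separate time for LPS. There were 6 conditions, and each had 1 culture from either strain, so a single condition rests on 2 arrays.

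Apoptotic cells display phosphatidylserine, a lipid that phagocytes recognise before they engulf and digest the dying cell. MERTK and AXL are receptor tyrosine kinases that bind this lipid through the bridging protein GAS6, and MFGE8 bridges it to integrins. TREM2 is a lipid-sensing receptor that signals through the adaptor DAP12, which Tyrobp encodes. SIRP-alpha, encoded by Sirpa, is the inhibitory receptor for the CD47 that living cells carry. ADGRE1 (F4/80) and CD68 (macrosialin) are the usual markers of mouse macrophages, and VCAM1 is an adhesion molecule for integrin alpha4 beta1 on some tissue macrophages and on endothelium. Retinoic acid acts through nuclear receptors, of which Ro is known as an antagonist of the alpha form, and LPS is a bacterial cell wall component sensed by TLR4. Marrow cultures grown in GM-CSF are known to hold macrophage-like as well as dendritic-like cells.

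Signals are probe set intensities in arbitrary linear units, and the highest median of any array, 41.8, is called background here. Across the 12429 tested genes, the median change was not 0 for LPS, Ro and strain (-0.41, 0.22 and 0.14 on the log2 scale). Log2 changes and folds below are therefore relative to that median, and ± gives the standard error of the model. The adjusted p-values test the change at the deposited scaling. Quantile normalization removes such shifts, and the text says where it gives another call for a member's brightest probe set or another list count. All 10 genes passed the filter on low values with 1 probe set or more, and 15 of the 17 probe sets did. The labelled cell type was checked on conventional dendritic cell markers: Itgax had signals from 1013 to 6159 over the 12 arrays and H2-Ab1 from 7047 to 11841, whereas Flt3 ran only from 4.89 to 101 and Zbtb46 from 26.2 to 501. In bulk samples, fewer cells of a type and less RNA per cell cannot be told apart.

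The promoters of 4 members that changed with Ro are shown because Trem2, Cd68 and Mertk fell together while Mfge8 rose. Each is the 250 bases before the RefSeq transcription start (GRCm38.p6), read on the strand of the gene, and capitals mark motif matches. The motifs searched on both strands were the PU.1 core GAGGAA, the AP-1 site TGANTCA and the nuclear receptor hexamer AGGTCA, none of which overlaps another here, and the interferon-stimulated response element. A match to the other strand is also in capitals, so that the PU.1 core may read TTCCTC and the hexamer may read TGACCT.
Trem2, chr17:48346151-48346400, plus strand: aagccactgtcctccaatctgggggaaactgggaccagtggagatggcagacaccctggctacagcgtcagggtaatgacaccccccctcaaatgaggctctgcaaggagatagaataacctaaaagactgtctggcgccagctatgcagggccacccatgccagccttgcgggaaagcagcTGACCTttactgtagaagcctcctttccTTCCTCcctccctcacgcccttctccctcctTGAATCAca
Cd68, chr11:69666171-69666420, minus strand: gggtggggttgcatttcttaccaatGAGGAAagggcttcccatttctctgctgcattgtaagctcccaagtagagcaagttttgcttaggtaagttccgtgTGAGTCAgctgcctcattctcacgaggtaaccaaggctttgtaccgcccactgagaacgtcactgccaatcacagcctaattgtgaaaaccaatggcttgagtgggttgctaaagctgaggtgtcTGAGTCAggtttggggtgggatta
Mertk, chr2:128698665-128698914, plus strand: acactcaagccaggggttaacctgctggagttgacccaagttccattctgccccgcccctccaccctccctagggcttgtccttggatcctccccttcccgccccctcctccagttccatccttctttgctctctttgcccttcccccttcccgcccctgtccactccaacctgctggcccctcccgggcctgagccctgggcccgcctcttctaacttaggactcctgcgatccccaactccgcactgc
Mfge8, chr7:79149061-79149310, minus strand: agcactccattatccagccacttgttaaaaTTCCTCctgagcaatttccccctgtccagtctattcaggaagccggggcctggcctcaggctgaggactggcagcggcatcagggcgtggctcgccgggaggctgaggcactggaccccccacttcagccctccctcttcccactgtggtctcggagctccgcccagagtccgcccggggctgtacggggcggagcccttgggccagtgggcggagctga
The Trem2 window held 1 PU.1 core, 1 AP-1 site and 1 hexamer, and the Cd68 window held 1 PU.1 core and 2 AP-1 sites. The Mfge8 window held 1 PU.1 core, and the Mertk window none of these motifs. Of 32851 promoter windows of the same length, 23.3% held the PU.1 core, 6.75% the AP-1 site, 14% the hexamer and 2.98% the interferon element. Promoters were given for 6 of the 10 members. Among the others given, the Axl window held 1 PU.1 core and the Gas6 window none of the motifs. A match describes these letters only.

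The first comparison sets 4 Ro arrays against 4 arrays without retinoid, across both LPS states and both strains. Trem2, Cd68, Mertk and Sirpa fell and Mfge8 and Vcam1 rose, so 6 of the 10 members passed the adjusted threshold of 0.05. Of all tested genes, 18.4% passed it, 4.35% as lower and 14% as higher. The median relative log2 change of the members was -1.01, against 0 for all tested genes. By signal, Trem2, Cd68, Mertk, Sirpa, Tyrobp and Axl were lower than their no-retinoid partner of the same strain and LPS state in all 4 pairs. Gas6 was lower in 3 of 4, and Mfge8 and Vcam1 were higher in all 4.

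**Figure D1:**
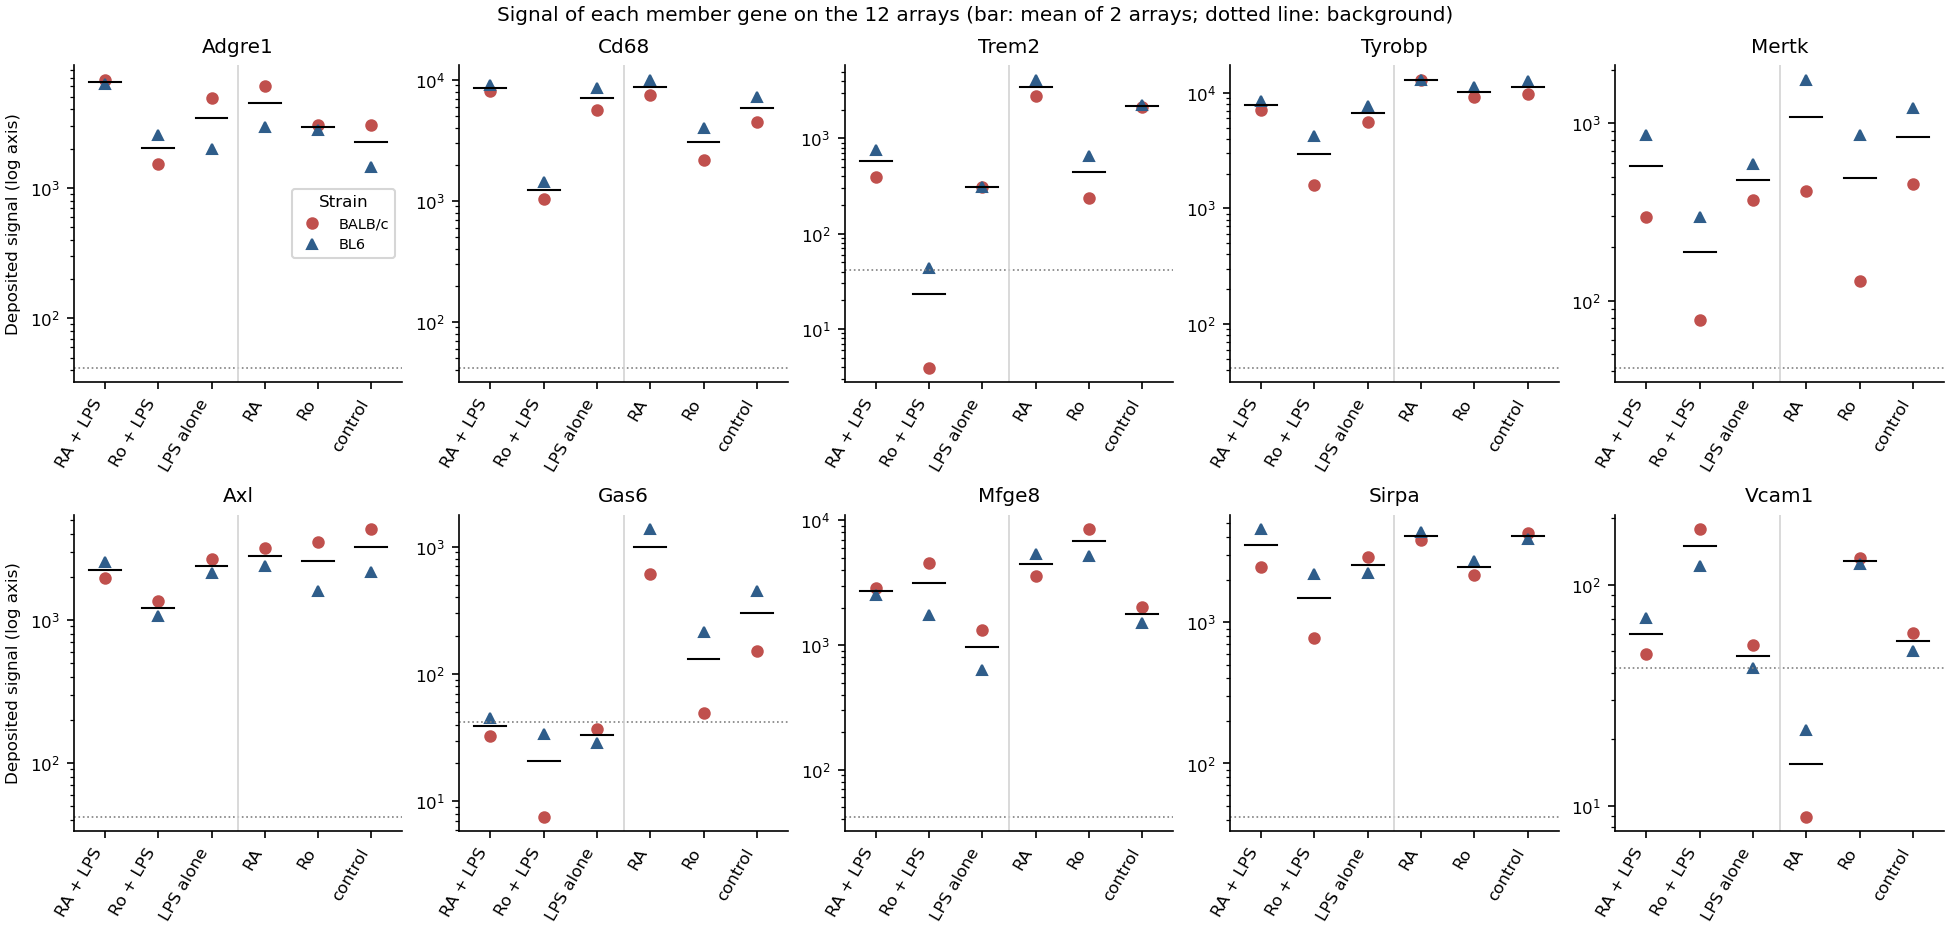
Signal of each of the 10 genes (log axis, arbitrary units) in the 6 conditions, 1 point per array, with colours for strain. Trem2 falls with LPS and is lowest with Ro and LPS together, whereas Mfge8 is above its no-retinoid level with Ro in every pairing.

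Trem2 had the largest change with Ro among the members. With Ro its signal was 238 in BALB/c and 655 in BL6 cultures, against 2111 and 2233 in the control cultures. With Ro and LPS it was 3.92 and 43.2, against 309 and 311 with LPS alone. Every Ro array was thus below its partner, although the ranges of the Ro and no-retinoid groups overlapped. The relative log2 change was -3.05 ± 0.29 (8.29-fold lower, adjusted p = 0.000346). Tyrobp, the adaptor through which TREM2 signals, had 9152 and 11123 units with Ro in BALB/c and BL6 cultures, against 9738 and 12551 in controls. It had 1605 and 4252 with Ro and LPS, against 5634 and 7704 with LPS alone. Its change, -0.95 ± 0.27, missed the threshold (adjusted p = 0.0725), and without the Ro BALB/c array it passed, at -1.18 (adjusted p = 0.0345).

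Cd68, the macrosialin gene, had signals of 2175 and 3998 with Ro in BALB/c and BL6 cultures, against 4524 and 7163 in controls. With Ro and LPS they were 1037 and 1436, against 5649 and 8551 with LPS alone. The Ro and no-retinoid arrays did not overlap, and the change was -1.94 ± 0.27 (3.85-fold lower, adjusted p = 0.00253). In either strain alone the same change was -1.84 and -2.05 with 2 Ro arrays against 2, past no threshold (adjusted p = 0.0736 in BALB/c and 0.0644 in BL6). Adgre1, the F4/80 gene, had 3042 and 2802 units with Ro, against 3049 and 1450.0 in controls, and 1519 and 2537 with Ro and LPS, against 4896 and 1998 with LPS alone. Its change was -0.32 ± 0.33 (adjusted p = 0.856), with 2 of 4 pairs higher by signal.

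The receptors and bridging proteins for phosphatidylserine moved in both directions. Mertk had 130 units in BALB/c and 854 in BL6 cultures with Ro, against 452 and 1222 in controls, and 77.3 and 297 with Ro and LPS, against 370 and 590 with LPS alone. All 4 Ro arrays were below their partners and the change was -1.52 ± 0.26 (2.88-fold lower, adjusted p = 0.00766), which BL6 arrays alone did not pass (-1.09, adjusted p = 0.192). Axl had 3532 and 1600 units with Ro, against 4334 and 2181 in controls, and 1364 and 1061 with Ro and LPS, against 2675 and 2125 with LPS alone. Its change of -0.90 ± 0.23 missed the threshold (adjusted p = 0.0592). It passed under quantile normalization (adjusted p = 0.0392), without the Ro BALB/c array (-1.15, adjusted p = 0.017) and without the RA+LPS BL6 array (adjusted p = 0.0281).

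Mfge8, the bridge to integrins, rose. Its signal was 8542 and 5189 with Ro in BALB/c and BL6 cultures, against 2026 and 1508 in controls. With Ro and LPS it was 4552 and 1726, against 1313 and 627 with LPS alone. The change was 1.54 ± 0.26 (2.91-fold higher, adjusted p = 0.00178). Gas6, the bridge to MERTK and AXL, had 49.3 and 212 units with Ro, against 152 and 451 in controls, and lay below background in the cultures with Ro and LPS (7.53 and 33.8) and with LPS alone (36.9 and 28.8). Its change of -1.08 ± 0.44 missed the threshold (adjusted p = 0.184).

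Sirpa had 2173 and 2717 units with Ro in BALB/c and BL6 cultures, against 4278 and 3880 in controls, and 769 and 2204 with Ro and LPS, against 2869 and 2242 with LPS alone. The Ro arrays were below their partners in all 4 pairs, least so in BL6 cultures with LPS. The change was -1.07 ± 0.26 (2.1-fold lower, adjusted p = 0.0413). This call was lost in 13 of 21 alternatives. It was lost with no filter on low values, no intensity trend or no replicate block (limma, adjusted p = 0.0593, 0.0598 and 0.091). Arrays of BALB/c alone and of BL6 alone did not pass either (limma, adjusted p = 0.0721 and 0.544). The call was lost when any of 8 arrays was left out: the BALB/c arrays of all 6 conditions and the BL6 arrays of control and Ro (adjusted p from 0.0512 to 0.137, log2 change from -1.16 to -0.83). Vcam1 was dim throughout, with 132 and 124 units with Ro against 60.6 and 50.2 in controls, and 179 and 121 with Ro and LPS against 53.4 and 41.9 with LPS alone. The groups did not overlap, and the change was 0.97 ± 0.31 (1.96-fold higher, adjusted p = 0.0223). The call was lost in 6 of 21 alternatives. It was lost at log2(signal + 1) (limma, adjusted p = 0.0517) and in BALB/c alone and BL6 alone (adjusted p = 0.195 and 0.169). It was also lost without the LPS-alone BALB/c, Ro+LPS BALB/c or LPS-alone BL6 array (adjusted p = 0.0756, 0.0555 and 0.0724, log2 changes 0.90, 0.86 and 0.81).

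Signals of other genes moved with Ro beside these. The summed signal of 26 other macrophage genes was 56162 to 98527 with Ro, against 119841 to 135600 without retinoid, with no overlap. The summed signal of 16 conventional dendritic cell markers was 30245 to 38226 with Ro, against 19677 to 31543 without retinoid, higher in all 4 pairs. The part of these differences in the members' changes was not tested.

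**Figure D2:**
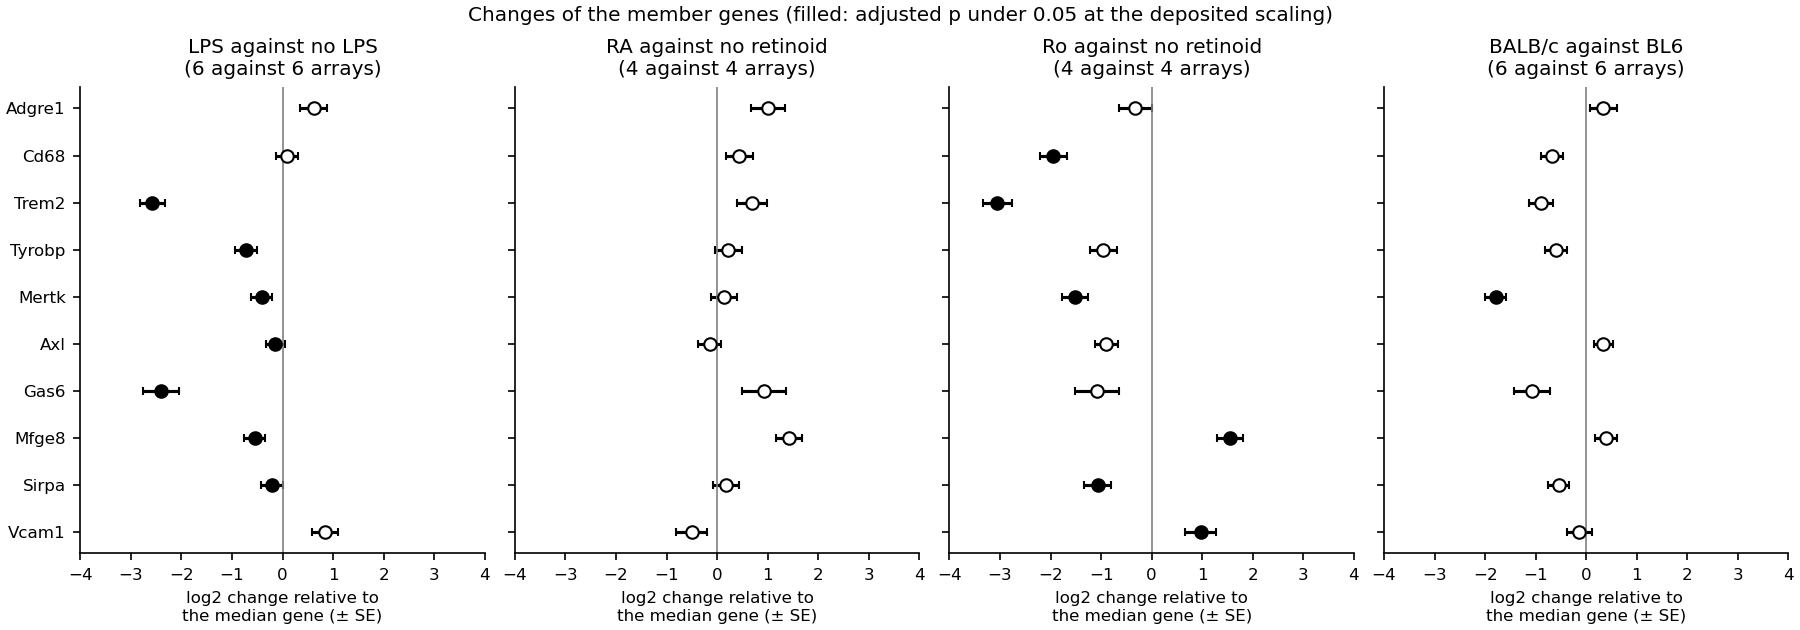
Relative log2 change (points) with standard error (bars) of the 10 genes for LPS, RA, Ro and strain. Trem2 and Cd68 are far below 0 with Ro, Mfge8 is above 0 with both RA and Ro, and Mertk is lowest of the members in the strain comparison.

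The matching comparison for RA sets 4 RA arrays against the 4 arrays without retinoid. No member passed the threshold, and 0% of all tested genes did (limma, 3 members and 1026 genes at an unadjusted p under 0.05). The members' median relative change was 0.33. By signal, 5 members were higher in all 4 pairs: Mfge8, Adgre1, Trem2, Cd68 and Tyrobp. Relative to the median gene of the pair, Cd68 (-0.099) and Tyrobp (-0.030) were below 0 in BL6 cultures with LPS. Mfge8 had 3601 and 5348 units with RA in BALB/c and BL6 cultures, against 2026 and 1508 in controls, and 2887 and 2518 with RA and LPS, against 1313 and 627 with LPS alone. The groups did not overlap, with a change of 1.42 ± 0.26 (2.67-fold, adjusted p = 0.0728).

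Adgre1 had 6101 and 2930.4 units with RA, against 3049 and 1450.0 in controls, and 6769 and 6249 with RA and LPS, against 4896 and 1998 with LPS alone. Its change was 1.01 ± 0.33 (adjusted p = 0.436), and the groups overlapped. Trem2 had 2812 and 4123 units with RA, against 2111 and 2233 in controls, and 391 and 755 with RA and LPS, against 309 and 311 with LPS alone (0.69 ± 0.29, adjusted p = 0.561). The same order held for Cd68, at 7494 and 10057 with RA against 4524 and 7163 in controls, and 8166 and 9063 with RA and LPS against 5649 and 8551 with LPS alone (0.44 ± 0.27, adjusted p = 0.682). Tyrobp had 12937 and 12997 units with RA, against 9738 and 12551 in controls, and 7113 and 8564 with RA and LPS, against 5634 and 7704 with LPS alone (0.22 ± 0.27, adjusted p = 0.851).

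Gas6 had 610 and 1375 units with RA, against 152 and 451 in controls, but 32.8 and 45.1 with RA and LPS, against 36.9 and 28.8 with LPS alone (0.93 ± 0.44, adjusted p = 0.608). The RA arrays were above their partners in both strains without LPS and near background with LPS. The interaction of RA with LPS did not pass (-1.69, adjusted p = 0.851). Mertk had 417 and 1758 units with RA against 452 and 1222 in controls, and 297 and 853 with RA and LPS against 370 and 590 with LPS alone. For Mertk (0.14 ± 0.26), Axl (-0.15 ± 0.23) and Sirpa (0.18 ± 0.26), 2 of 4 pairs were higher. Vcam1 was below background on the RA arrays without LPS (8.89 and 22.1, against 60.6 and 50.2 in controls), and had 48.6 and 70.8 with RA and LPS, against 53.4 and 41.9 with LPS alone (-0.50 ± 0.31, adjusted p = 0.704).

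**Figure D3:**
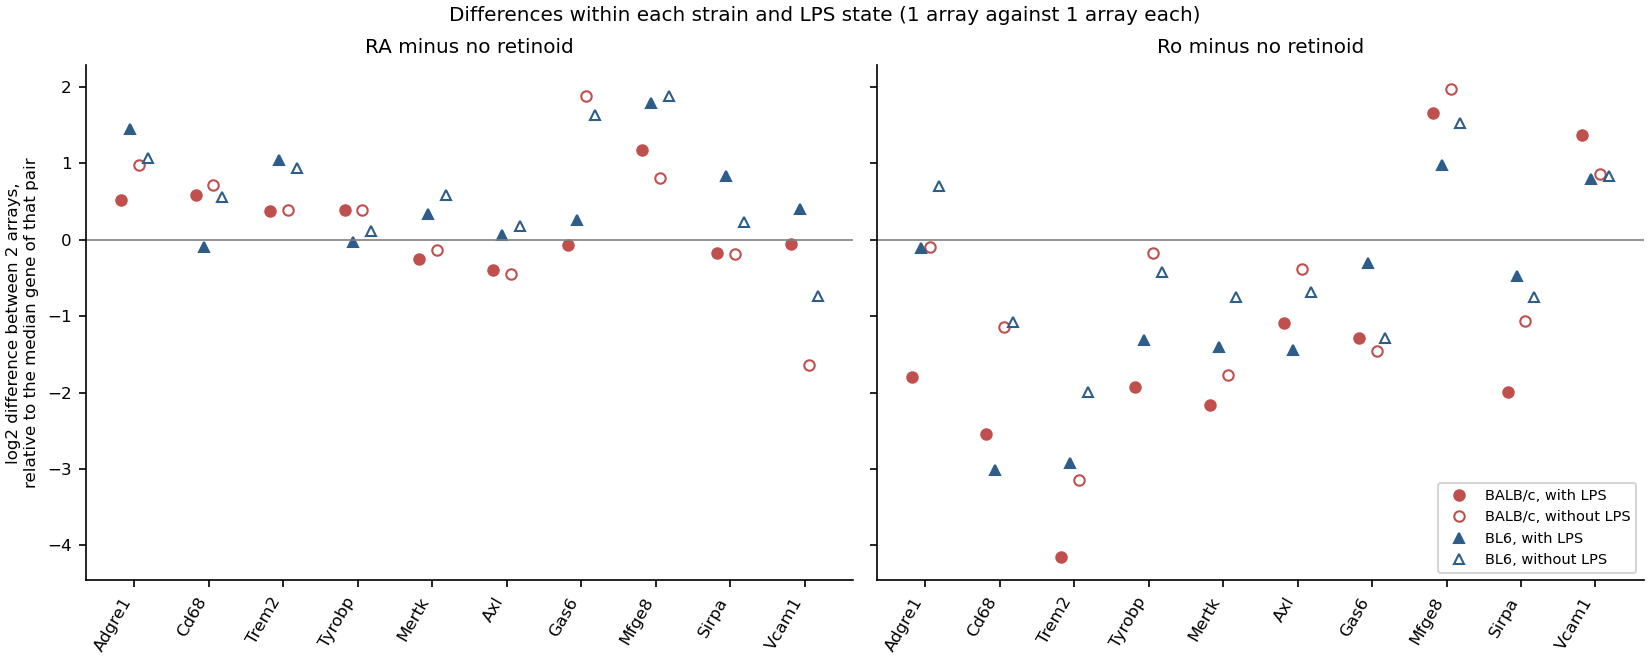
Log2 difference of each RA or Ro array from the array of the same strain and LPS state without retinoid, relative to the median of all tested genes, 1 point per pair. The 4 Ro points of Trem2, Cd68 and Mertk are all below 0, and the 4 RA and 4 Ro points of Mfge8 are all above 0.

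Set directly against each other, RA and Ro cultures (4 arrays each, at unequal labelled doses) differed for 8 of the 10 members, against 19.8% of all tested genes. With RA, 7 members were higher and 1 lower, against 5.36% and 14.4% of all tested genes: Trem2 by 3.75 ± 0.29 (13.4-fold, adjusted p = 3.08e-05), Cd68 by 2.39 ± 0.27, Gas6 by 2.01 ± 0.44, Mertk by 1.66 ± 0.26, Adgre1 by 1.33 ± 0.33, Sirpa by 1.25 ± 0.26 and Tyrobp by 1.18 ± 0.27. Vcam1 was lower with RA (adjusted p = 0.003, RA mean below background). Axl (0.75 ± 0.23, adjusted p = 0.115) and Mfge8 (-0.12 ± 0.26, adjusted p = 0.394) did not pass. For Mfge8 the strains went opposite ways: the difference was -0.82 in BALB/c arrays alone and 0.58 in BL6 arrays alone (adjusted p = 0.0602 and 0.526), and it turned to 0.22 without the RA BALB/c array and 0.054 without the Ro+LPS BALB/c array. The comparisons of RA and of Ro with no retinoid share the 4 arrays without retinoid. The Adgre1 call was lost without any of 5 arrays (RA, RA+LPS and Ro+LPS BALB/c, RA+LPS and Ro+LPS BL6, adjusted p from 0.0589 to 0.0871). The Tyrobp call was lost without RA BALB/c, RA+LPS of either strain or Ro+LPS BL6 (adjusted p from 0.0553 to 0.0837), and the Gas6 call without RA BL6 (1.63, adjusted p = 0.0567). Markers moved with this comparison too: 9 of 9 mature and 11 of 16 conventional dendritic cell markers were lower with RA and 1 conventional marker higher, and 13 of 26 macrophage genes were higher and none lower. Under quantile normalization 8 mature and 7 conventional markers were lower and 1 conventional marker higher, and 15 macrophage genes were higher and none lower. The macrophage sum was 132894 to 155634 with RA, against 56162 to 98527 with Ro, and the conventional dendritic cell sum was 13175 to 25195 with RA, against 30245 to 38226 with Ro, neither overlapping. Their part in the members' differences was not tested.

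LPS was compared with no LPS over all 3 retinoid conditions, with 6 arrays against 6. Of the 10 members, 7 passed as lower and none as higher, beside 58.7% of all tested genes, 47.7% lower and 10.9% higher. Under quantile normalization 5 members were lower and 1 higher, beside 28.7% and 24.4% of all genes. Of all genes past the threshold, 18.7% were higher at the deposited scaling and 45.9% under quantile normalization. The members' median relative change was -0.31.

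Trem2 ran from 3.92 to 755 with LPS, with a median of 310.4, against 238 to 4123 with a median of 2172 without. The groups overlapped, with the Ro arrays lowest of those without LPS, and all 6 pairs were lower. The relative log2 change was -2.57 ± 0.24 (5.95-fold lower, adjusted p = 1.48e-06). Gas6 ran from 7.53 to 45.1 with LPS, median 33.3, against 49.3 to 1375 without, median 331. No array overlapped, and the LPS mean (30.8) lay below background, so no fold is given (adjusted p = 3.95e-05).

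Tyrobp ran from 1605 to 8564 with LPS, median 6374, against 9152 to 12997 without, median 11837, again with no overlap. It fell by 0.73 ± 0.22 relative to the median gene (1.66-fold, adjusted p = 0.000723). Mfge8 had a median of 2122 with LPS (627 to 4552), against 4395 without (1508 to 8542), and fell by 0.55 ± 0.21 (adjusted p = 0.00187). The relative change was -0.086 in BALB/c arrays alone and -0.99 in BL6 arrays alone (adjusted p = 0.0243 and 0.00289), and -0.33 without the Ro+LPS BL6 array. The interaction of strain with LPS did not pass for Mfge8 (0.93, adjusted p = 0.534). These 4 members and Sirpa also passed as lower under quantile normalization.

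Mertk, Axl and Sirpa changed less. Mertk had a median of 334 with LPS (77.3 to 853), against 653 without (130 to 1758), at -0.41 ± 0.21 (adjusted p = 0.00513), and quantile normalization ended this call (adjusted p = 0.234). Its change was 0.066 in BALB/c arrays alone and -0.87 in BL6 arrays alone (adjusted p = 0.0966 and 0.00849), and -0.23 without the Ro BL6 array. Axl had a median of 2040 with LPS (1061 to 2675), against 2786 without (1600 to 4334), at -0.14 ± 0.19 (adjusted p = 0.0239). Its call was lost under quantile normalization (adjusted p = 0.0725) and without the control BALB/c, Ro BALB/c, RA+LPS BALB/c, Ro+LPS BALB/c or Ro+LPS BL6 array (adjusted p from 0.0551 to 0.0665). Sirpa had a median of 2351 with LPS (769 to 4570), against 3835 without (2173 to 4349), at -0.21 ± 0.21 (adjusted p = 0.0248). It was lost without the control or Ro BALB/c, RA+LPS BALB/c, Ro BL6 or LPS-alone BL6 array (adjusted p from 0.0503 to 0.0693), and was -0.037 without the Ro+LPS BALB/c array.

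The 2 classical markers did not pass. Cd68 had a median of 6907 with LPS (1037 to 9063), against 5843 without (2175 to 10057), at 0.08 ± 0.22 (adjusted p = 0.212). Adgre1 had a median of 3716 (1519 to 6769) against 2986 (1450.0 to 6101), at 0.62 ± 0.27 (adjusted p = 0.537), and passed as higher without the Ro+LPS BALB/c array (0.87, adjusted p = 0.0364). Vcam1 had a median of 62.1 with LPS (41.9 to 179), against 55.4 without (8.89 to 132), at 0.84 ± 0.25 (adjusted p = 0.158). Vcam1 was higher in 6 of 6 pairs relative to the median gene and in 3 of 6 by signal, and quantile normalization called it higher (0.95, adjusted p = 0.00474).

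The difference that LPS made to Cd68 was tested against the presence of Ro. With LPS, Cd68 was lower in Ro cultures than without LPS (1037 and 1436, against 2175 and 3998; -0.92 ± 0.18, adjusted p = 0.000545), whereas in cultures without retinoid it was 5649 and 8551 with LPS, against 4524 and 7163 (0.81 ± 0.18, adjusted p = 0.211). The interaction was -1.69 ± 0.25 (adjusted p = 0.0277), the only member of 10 to pass, beside 0.668% of all tested genes. The call was lost without any of 7 arrays, namely the BALB/c and BL6 arrays of control, Ro and Ro+LPS and the LPS-alone BL6 array (adjusted p from 0.0516 to 0.133, interaction from -1.90 to -1.49). No member passed for RA with LPS (0% of all genes, limma, 2 members at an unadjusted p under 0.05).

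Within single retinoid conditions, LPS changed 3 members without retinoid, 4 in RA cultures and 6 in Ro cultures, beside 45.5%, 35% and 29.8% of all tested genes, and the RA count was 2 without the RA+LPS BL6 array. Under quantile normalization the RA count was 3, beside 29.3%, without Tyrobp (adjusted p = 0.11), and the Ro count 5, beside 27.4%, without Axl (adjusted p = 0.0793). Tyrobp was near the threshold in RA cultures (limma, adjusted p = 0.0479) and without retinoid (adjusted p = 0.0359). Of 19 alternatives, 14 ended its call in RA cultures and 7 its call without retinoid. Within the LPS cultures, Ro changed 7 members, beside 21.5% of all tested genes, with Cd68 at -2.78 ± 0.18 (6.86-fold lower, adjusted p = 7.34e-05) and Tyrobp at -1.61 ± 0.26 (3.06-fold lower, adjusted p = 0.00619). Trem2 fell too, with the mean of its Ro+LPS arrays below background. Under quantile normalization the count was 8, beside 20.2%, with Sirpa added (adjusted p = 0.046). Without LPS, Ro changed 3 members, beside 2.63%: Trem2, at -2.56 ± 0.38 (5.91-fold lower, adjusted p = 0.00902), Mfge8, at 1.76 ± 0.36 (adjusted p = 0.0198), and Cd68, at -1.10 ± 0.18 (adjusted p = 0.0196). These rest on 2 arrays against 2. Without the Ro+LPS BALB/c array 3 members were called with LPS and without the LPS-alone BL6 array 4, and without LPS the count was 0 without the control or Ro BALB/c array and 1 without either BL6 array. The Cd68 and Mfge8 calls without LPS were lost without the control or Ro array of either strain (adjusted p from 0.0523 to 0.21 and from 0.0972 to 0.139), and the Trem2 call without the control or Ro BALB/c array (adjusted p = 0.0725 and 0.089).

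Strain differed for 1 of the 10 members, Mertk, which was lower in BALB/c, beside 15.2% of all tested genes in either direction and 3.81% as lower. The MERTK receptor gene ran from 77.3 to 452 in BALB/c cultures, with a median of 334, against 297 to 1758 in BL6 cultures, with a median of 854. It was lower in BALB/c in all 6 conditions, at -1.79 ± 0.21 (3.46-fold, adjusted p = 0.000632). Trem2 was also lower in BALB/c in all 6 conditions, with a median of 350.1 against 705 (-0.90 ± 0.24, adjusted p = 0.0532). It passed under quantile normalization (adjusted p = 0.0178), and without the LPS-alone BALB/c array (adjusted p = 0.0406) or the control BL6 array (adjusted p = 0.0436). The other members did not pass. Cd68 (-0.67 ± 0.22, adjusted p = 0.119) and Tyrobp (-0.60 ± 0.22, adjusted p = 0.171) were lower in BALB/c in all 6 conditions, and Gas6 in 5 of 6 (-1.08 ± 0.36, adjusted p = 0.0998). The brightest Sirpa probe set had -0.54 ± 0.21, Vcam1 -0.14 ± 0.25, Adgre1 0.34 ± 0.27, Axl 0.34 ± 0.19 and Mfge8 0.39 ± 0.21. Single arrays decided some of them: Adgre1 passed as higher without Ro+LPS BALB/c (0.59, adjusted p = 0.0173), Mfge8 without RA BALB/c (0.61, adjusted p = 0.0216), Axl without RA+LPS BL6 (0.46, adjusted p = 0.0245), and Gas6 passed as lower without RA+LPS BL6 (-1.38, adjusted p = 0.0332). No member passed an interaction of strain with LPS or with Ro (limma, 1 and 4 members at an unadjusted p under 0.05), beside 0.121% and 0% of all genes.

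Several members have more than 1 probe set, and those of Sirpa disagreed. Besides the brightest, used above, the second ran from 463 to 2368 and was higher with LPS (0.98 ± 0.20, adjusted p = 0.029) and in BALB/c (0.63 ± 0.20, adjusted p = 0.0181). The third ran from 201 to 1266 and was higher in BALB/c (1.02 ± 0.22, adjusted p = 0.00306). With Ro, the second was lower (-1.02 ± 0.25, adjusted p = 0.0437), as was the brightest, and the third was not called (-0.72 ± 0.26, adjusted p = 0.199). The direction of the Sirpa call with LPS thus depends on the probe set. For Vcam1, the dimmest rose with LPS (adjusted p = 0.00148, no-LPS mean below background) and had -0.39 ± 0.27 with Ro (adjusted p = 0.676), whereas the middle one had 0.57 ± 0.28 with Ro (adjusted p = 0.0703). The other probe sets of Trem2 and Axl stayed below background on every array, and that of Gas6 on 11 of 12.

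**Figure D4:**
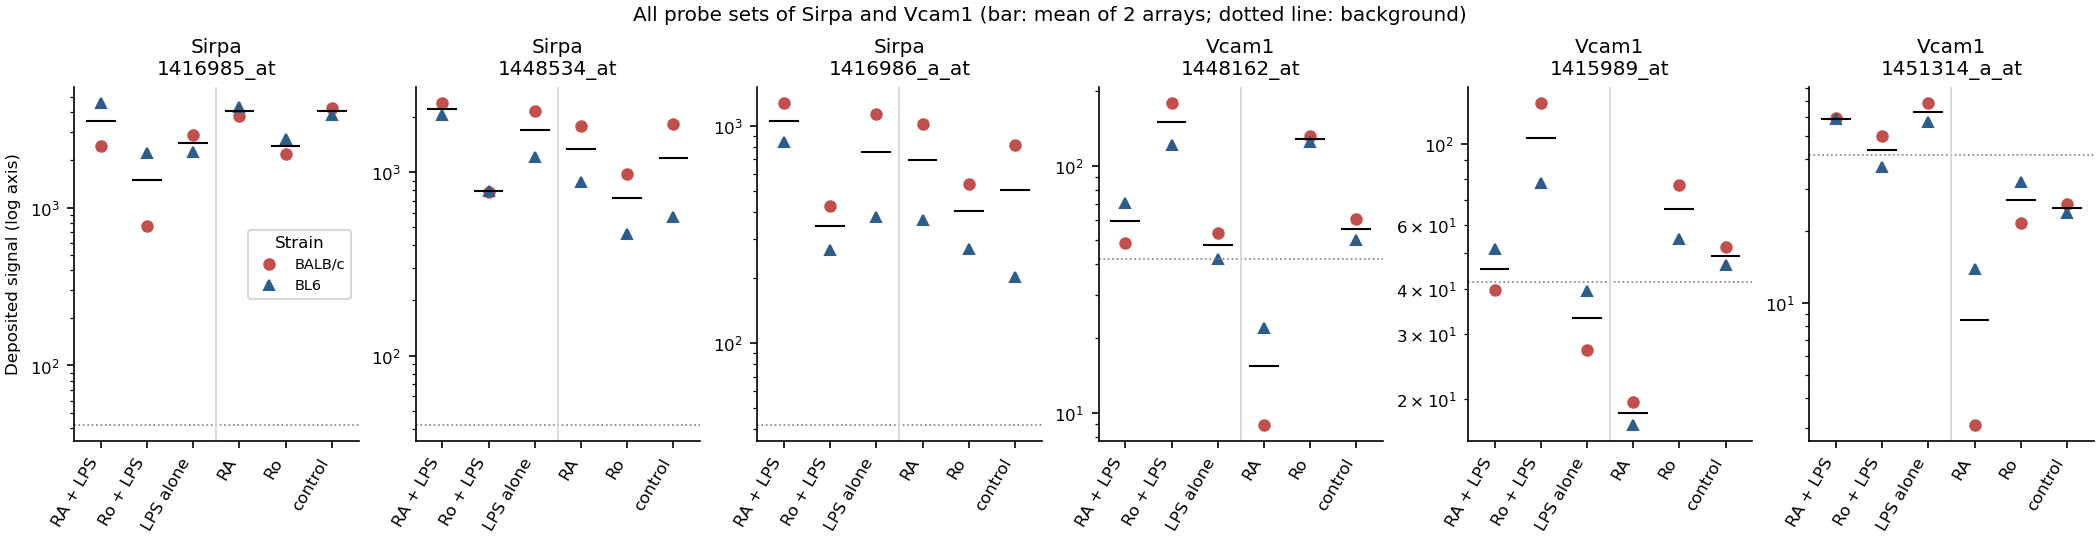
Signal (log axis, arbitrary units) of each probe set of Sirpa and Vcam1 in the 6 conditions, 1 point per array. The brightest and second Sirpa probe sets were called in opposite directions with LPS.

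Likeness between genes was measured as the mean absolute difference over 12 arrays of log2 values after each gene's own mean was subtracted, so that 0 is an identical pattern. Among the members, Sirpa and Tyrobp were closest (0.37) and Trem2 and Vcam1 farthest apart (2.18). The median over all genes was 0.67 for Sirpa and 0.71 for Tyrobp. Their nearest genes lay outside the members, P2rx4 for Sirpa (0.18) and Zfp326 for Tyrobp (0.21). The 3 tested genes nearest to Trem2 were Tspan4 (0.54), Selenop (0.57) and Tfec (0.60), against a median of 1.73 over all genes. For Cd68 they were Fnip2 (0.27), Anpep (0.28) and Clec1b (0.29), for Mertk Tfpi (0.35), Mpeg1 (0.42) and Xdh (0.44), and for Gas6 Cd28 (0.27), Arhgap19 (0.48) and Itga6 (0.49). For Mfge8 they were Slc39a6 (0.37), Fdps (0.40) and Znrd1 (0.44). The medians over all genes were 1.08 for Cd68, 1.09 for Mertk, 1.43 for Gas6 and 0.85 for Mfge8. The nearest gene was Cpd for Adgre1 (0.26, median 0.78), Csf2ra for Axl (0.21, median 0.59) and Pik3r5 for Vcam1 (0.24, median 0.77). The 12 arrays come from both strains, and strain differences and the deposited scaling were left in, so they are part of these patterns. The values are a description.

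Other genes of the same processes were counted from lists of known members. Over all tested genes, 14% were higher and 4.35% lower with Ro, and 10.9% higher and 47.7% lower with LPS. Of 46 tested receptors, bridging molecules and engulfment genes, 5 were higher and 13 lower (28.3%) with Ro, and 9 were higher (19.6%) and 22 lower (47.8%) with LPS. Elmo1, an engulfment adaptor, rose 2.84-fold with Ro, whereas Stab1 and Cd300lf, both phosphatidylserine receptors, fell 3.21-fold and 3.45-fold. With LPS, Tgm2, a transglutaminase used in uptake, rose 3.34-fold, and P2ry6, a nucleotide receptor of phagocytes, fell 4.62-fold. Of 26 macrophage genes, 10 were lower (38.5%) and none higher with Ro (median change -1.04), and 2 were higher and 13 lower (50%) with LPS. Among those lower with Ro were Apoe (24.2-fold lower), Gpnmb (3.73-fold lower) and the lysosomal protease gene Ctsd (2.13-fold lower). With LPS, Marco rose 20-fold and Cd14 4.06-fold, and Mrc1 fell 18.4-fold. Of 22 genes of TREM2 and DAP12 signalling, 3 were higher and 4 lower with Ro, with the kinase gene Syk 2.01-fold lower and Pik3cg 2.96-fold higher, and 1 higher and 14 lower with LPS.

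The CD47 and SIRP list had 2 of 8 genes lower with Ro and 4 higher and 3 lower with LPS, Cd47 itself rising 1.95-fold with LPS. The list called VCAM-1 ligands here holds integrin genes and also Ezr, Msn, Icam1 and Rac1, which are not ligands of VCAM-1. Of its 7 tested genes, 3 were higher with Ro and 2 lower with LPS. The 3 higher with Ro were Ezr (2.49-fold), Icam1 and Rac1, and none was an integrin gene. Quantile normalization did not call Icam1. With RA, 0 genes of these 5 lists passed (limma), as of all tested genes. Under quantile normalization the Ro counts were 2 higher and 11 lower for uptake genes, 0 and 12 for macrophage genes, 2 and 5 for TREM2 signalling, 0 and 3 for CD47 and SIRP and 2 and 0 for VCAM-1 ligands, beside 7.58% higher and 6.62% lower of all genes. The LPS counts under it were 12 higher and 18 lower for uptake genes, 2 and 10 for macrophage genes, 5 and 9 for TREM2 signalling, 4 and 2 for CD47 and SIRP and 2 and 1 for VCAM-1 ligands, beside 24.4% and 28.7%. More uptake genes and more genes of the TREM2 signalling list and the list called VCAM-1 ligands thus counted as higher with LPS under that scaling. More of all tested genes did so too.

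**Figure D5:**
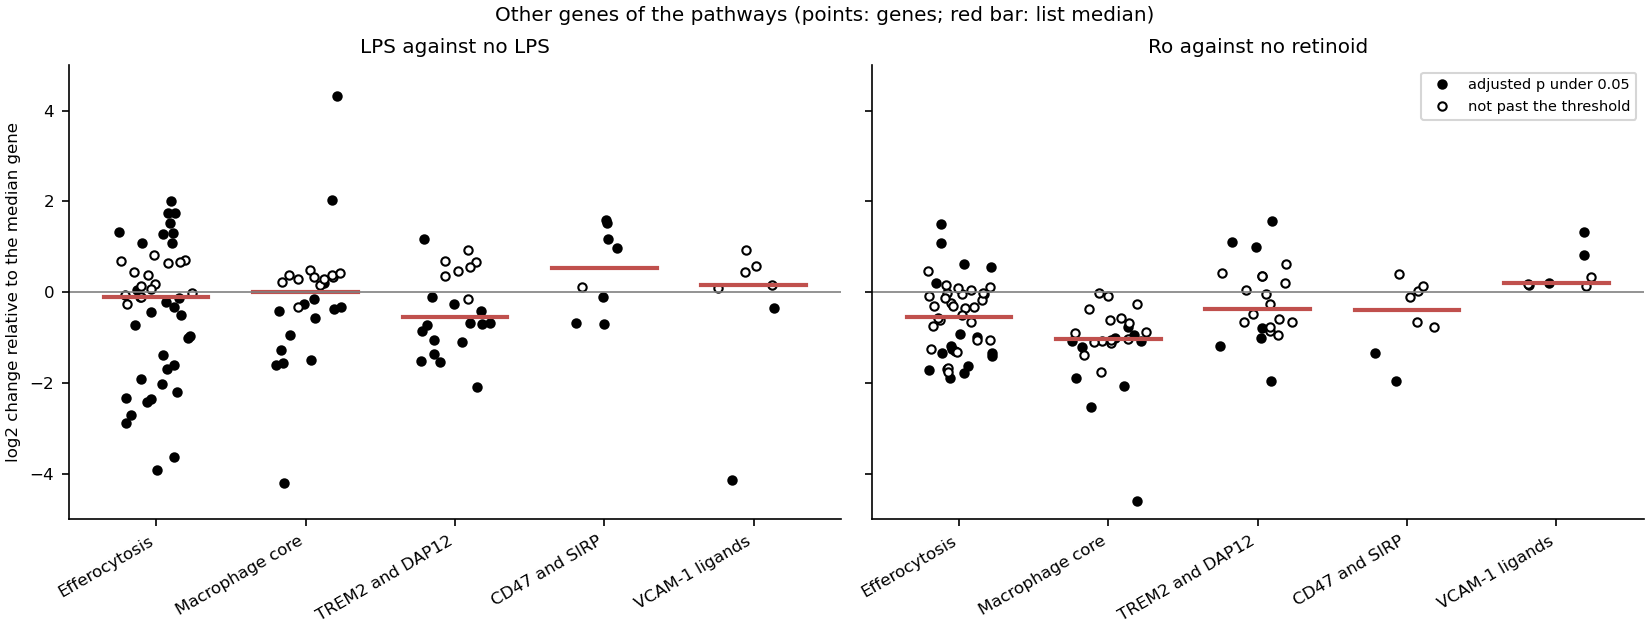
Relative log2 change of every tested gene of the 5 lists of related genes for LPS and Ro, with list medians as bars. The macrophage list has its median at -1.04 with Ro, and the median of all tested genes is 0.

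Markers of other cell types were measured on the same arrays. Beside the counts below, 14% of all tested genes were higher and 4.35% lower with Ro, and 10.9% higher and 47.7% lower with LPS. With Ro, 5 of 16 conventional dendritic cell markers and 4 of 9 markers of mature dendritic cells were higher and none lower. Under quantile normalization 5 and 3 were higher, and 1 conventional marker was lower. Of 11 granulocyte markers 2 were lower, of 10 stromal markers 1 was higher, of 6 endothelial markers 1 was lower, and of 5 mast cell and eosinophil markers 2 were higher and 1 lower. None of 3 B cell, 1 T or NK cell and 1 erythroid marker passed with Ro. Under quantile normalization 1 stromal marker was higher and 1 lower with Ro, as were 1 and 1 mast cell and eosinophil markers. Of all genes, 7.58% were higher and 6.62% lower under that scaling. With LPS, 8 of 9 mature dendritic cell markers were higher and 1 lower, whereas 2 of 16 conventional dendritic cell markers were higher and 11 lower. Of 11 granulocyte markers 2 were higher and 9 lower with LPS, and the summed granulocyte signal was 3945 to 16258 with LPS, against 12312 to 62566 without. All 5 mast cell and eosinophil markers were lower with LPS, with sums of 50.8 to 730.5, against 508 to 4045 without. Stromal markers had 3 of 10 higher and 1 lower with LPS, with sums of 286 to 875, against 144 to 585 without, and endothelial markers 3 of 6 higher and 3 lower. Of 3 tested B cell markers 1 was lower with LPS, and their sum was 55.7 to 185 with LPS, against 782 to 1691 without, with no overlap. Among B cell markers Ighm reached 1634 and Cd79b 148, while Cd79a and Ms4a1 stayed below background on every array, as did the T cell marker Cd3e. Under quantile normalization the LPS counts were 2 higher and 8 lower for conventional dendritic cells and 5 and 1 for stromal markers. They were 3 and 2 for endothelial, 1 and 1 for B cell and 0 and 3 for mast cell and eosinophil markers. Of all genes, 24.4% were higher and 28.7% lower with LPS under that scaling. The part of these cell types in the members' changes was not tested.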

How the data were processed

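The authors deposited linear intensities, 1 per probe set and array. MAS5 is named, without a version, per the submitters' processing notes, and the scaling target is not given in the sources used here. Of 45101 probe sets, 34945 were annotated to 1 gene, 932 to several and 9211 to none, and the other 13 were controls with a gene name (64 controls in all). The members and lists were chosen with earlier results of these data known.

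The scale was log2(signal + 16), on which the change of a dim gene is understated. Probe sets had to exceed the median of their array on 2 or more of the 12 arrays, and the brightest of a gene stood for it (12429 genes). The tool was limma 3.58.1 (R 4.3.3), using lmFit and then eBayes (trend on mean intensity), with adjustment over all genes by Benjamini-Hochberg at 0.05. Averaged comparisons came from an additive model of LPS, retinoid and strain, and single comparisons and interactions with LPS from a model with the 6 conditions and strain as terms. Each strain interaction was a further term of the additive model. The fits were tested on simulated data. Promoters were read with Python 3.11.15 and pandas 2.3.3, and figures drawn with matplotlib 3.10.9.

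Replicate 1 is BALB/c and replicate 2 BL6 in every condition, so strain is the replicate block, and strain cannot be told apart from a batch of the same number. The strain differences of any 2 conditions correlated across genes with r from 0.297 to 0.696 over 15 pairs. The p-values reflect only how these arrays vary, which may be technical, and the number of arrays limits the precision. No fold is given where a group's mean lay below background (41.8). All members were named in every averaged comparison, and from each list the genes named were among the 3 with the smallest p in each direction past the threshold. For likeness, the 3 nearest genes were taken, and for Adgre1, Tyrobp, Axl, Sirpa and Vcam1 only the nearest is named. Alternatives were quantile normalization, log2(signal + 1), no filter, a filter at 6 arrays, every probe set, no intensity trend, no replicate block, each strain alone, and each array left out.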

Additional observations from a re-analysis of the deposited data

Results flagged for a closer look

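For Cd68, the difference made by LPS was not the same with Ro as without retinoid: the interaction of Ro with LPS was -1.69 ± 0.25 on the log2 scale (limma, adjusted p = 0.0277). With LPS the signals were 1037 and 1436 in Ro cultures, against 2175 and 3998 in Ro cultures without LPS, and 5649 and 8551 in cultures without retinoid, against 4524 and 7163 without LPS. Over the 19 alternatives it ran from -1.90 to -1.34, and 10 of them ended the call (adjusted p up to 0.373).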

How the results depend on the processing

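Counts of members past the threshold are given first for the alternatives that moved them by more than 1.5 times. With Ro against no retinoid, 6 members passed, 3 in BALB/c arrays alone and 2 in BL6 arrays alone. With RA against Ro, 8 passed, 5 with no replicate block, 4 in BALB/c alone and 2 in BL6 alone. For strain, 1 passed, and 2 under quantile normalization, a filter at 6 arrays or every probe set. With no replicate block, 0 of 3 passed for Ro without LPS, 3 of 7 for Ro with LPS, 3 of 6 for LPS in Ro cultures and 0 of 1 for the interaction of Ro with LPS, which was also 0 with no filter or no intensity trend. Strain alone reduces the number of arrays, and the cause of the other moves was not tested. Leaving out 1 array at a time gave 5 to 7 members for LPS, 0 for RA, 4 to 7 for Ro, 6 to 9 for RA against Ro, 1 to 3 for strain, 0 to 3 for Ro without LPS, 3 to 7 for Ro with LPS, 2 to 4 for LPS without retinoid and for LPS in RA cultures, 4 to 7 for LPS in Ro cultures and 0 to 1 for the interaction. The sign turned for Mertk with LPS in BALB/c alone (0.066), and for Axl with LPS in BL6 alone (0.13) and without the Ro BALB/c array (0.028), the top of a range that began at -0.27 when 1 array was left out. Of all member results and alternatives, 2917 kept their side of the threshold and 30 gained a call. A further 140 lost a call with the sign kept, and the 3 named above whose sign turned lost theirs too. Of the 2917, 101 had the other sign, 0 of them for a change that was called.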
